A study of Rattus norvegicus with 200 samples.

Results

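Sprouty, SPRED and MAP kinase phosphatase genes are switched on by ERK signalling and their proteins then restrain it. The 7 genes described here are Spry1, Spry2, Spry4, Spred1, Dusp4, Dusp5 and Dusp6. They were taken by gene symbol from a count table of 20361 rat genes, and all 7 were found. They were picked with their levels over treatments and times in these same libraries already in view. Each level, fold and adjusted p-value below is therefore a description of these libraries, set beside the share of all genes that passed the same test.

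The material was RNA from brain microglia of adult male Wistar rats of WT genotype, sequenced as 200 bulk strand-specific libraries. Rats ate either chow or a high-fat diet (HFD). Food was given ad libitum, in the dark phase only (dark-feeding) or in the light phase only (light-feeding). That gave 6 treatments, named chow ad libitum, chow dark-feeding, chow light-feeding, HFD ad libitum, HFD dark-feeding and HFD light-feeding. Each ad libitum group had 34 libraries and each of the others had 33. Rats were taken at 6 Zeitgeber times (ZT, hours after lights on): ZT2, ZT6, ZT10, ZT14, ZT18 and ZT22, with 5 to 7 libraries per treatment and time. The labels give neither the composition and duration of the diet nor the clock hours of food access. Whether every library stands for its own animal is not stated, and p-values here reflect only how much libraries vary.

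Library size ran from 3777749 to 11636262 counts, with a median of 7548305. In 6 libraries, all from chow-fed rats, 13 clock genes sat apart from their own treatment and time. They were chow ad libitum ZT2, ZT6 and ZT18, chow dark-feeding ZT2, and chow light-feeding ZT14 and ZT18, and the values without them are given with the processing alternatives. Markers of other brain cells were abundant. The summed level of 12 microglia markers had a median of 1115 to 1345 counts per 1000000 (CPM) across treatments, against 15030 to 17800 CPM for 12 oligodendrocyte markers and 3458 to 3604 CPM for 12 neuron markers. No marker in any of these lists was at 0 in all 200 libraries. The values are therefore those of mixed tissue RNA in which microglia are a part, and fewer cells of a type cannot be told apart from less RNA per cell.

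In the ERK pathway, growth factor receptors activate RAS, which drives RAF, MEK and ERK in turn. Sprouty and SPRED proteins act high in this chain, on signalling from receptors to RAS and RAF; SPRED1 works by bringing the RAS inhibitor neurofibromin to the membrane. The DUSP proteins act at its end by removing the phosphates that activate ERK: DUSP5 and DUSP6 are selective for ERK, DUSP5 in the nucleus and DUSP6 in the cytoplasm, while DUSP4 is nuclear and also acts on other MAP kinases. In microglia the pathway is best known downstream of CSF1R, the receptor on which these cells depend for survival. In neurons it is driven by activity and neurotrophins.

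Promoters are shown for Spry4, which had the largest daily difference, and for Spry2 and Dusp5, the most abundant members. Dusp6 is shown because it peaked apart from the other tested members in HFD dark-feeding. RefSeq (build GRCr8) supplied a start site for 6 of the 7 members. The 250 bases before the start are printed for 4 of them, 5′ to 3′ on the gene's strand. Capitals mark every match, on either strand, to a CArG box (the site of serum response factor), to CGGAA (the core of sites for ETS factors, which ERK activates) and to TGACG (the core of sites for CREB).
Spry4, chr18:30702547-30702796, minus strand: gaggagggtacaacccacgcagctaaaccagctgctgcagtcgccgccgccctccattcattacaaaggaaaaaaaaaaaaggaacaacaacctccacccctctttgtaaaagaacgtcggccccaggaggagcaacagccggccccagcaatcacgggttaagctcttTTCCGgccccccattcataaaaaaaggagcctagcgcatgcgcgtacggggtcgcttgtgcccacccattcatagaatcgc
Spry2, first start, chr15:89111927-89112176, minus strand: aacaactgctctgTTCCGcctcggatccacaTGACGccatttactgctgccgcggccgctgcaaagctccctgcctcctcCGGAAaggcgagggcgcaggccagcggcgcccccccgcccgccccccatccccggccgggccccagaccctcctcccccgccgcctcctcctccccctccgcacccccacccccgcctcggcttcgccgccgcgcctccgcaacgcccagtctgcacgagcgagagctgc
Dusp5, chr1:262543524-262543773, plus strand: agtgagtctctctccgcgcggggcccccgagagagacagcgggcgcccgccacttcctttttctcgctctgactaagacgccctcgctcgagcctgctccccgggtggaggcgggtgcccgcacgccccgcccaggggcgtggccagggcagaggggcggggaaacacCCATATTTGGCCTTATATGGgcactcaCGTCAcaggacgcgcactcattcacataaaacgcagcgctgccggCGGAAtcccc
Dusp6, chr7:35979354-35979603, plus strand: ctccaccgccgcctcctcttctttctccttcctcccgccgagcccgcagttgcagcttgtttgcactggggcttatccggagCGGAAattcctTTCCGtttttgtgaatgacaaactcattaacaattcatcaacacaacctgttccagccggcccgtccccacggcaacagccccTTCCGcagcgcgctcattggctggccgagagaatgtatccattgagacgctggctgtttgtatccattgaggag
The window of Dusp5 held 2 CArG boxes, which began 82 and 72 bases before the start, and 1 TGACG. At least 1 CArG box stood in 1.5% of the 33469 windows of all genes, and 2 or more stood in 7 windows. CGGAA was matched 3 times in the window of Dusp6, 2 times at the first start of Spry2, and 1 time each for Spry4, Spred1 and Dusp5, against at least 1 match in 26.1% of all windows. TGACG was matched in Spry2 and Dusp5, against 18.2% of all windows. The full CREB site TGACGTCA, which contains TGACG, was in no member's window (1.59% of all windows), nor was the E-box CACGTG bound by the clock factors CLOCK and BMAL1 (5.59%). A match is a run of letters and not evidence of binding.

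Per unit length, Spry2 and Dusp5 were the abundant members. On the FPKM scale (read counts scaled for gene length and library size, which allows genes to be ranked), the mean over 200 libraries was 21.5 ± 3.23 (SD) for Spry2 and 19.0 ± 3.86 for Dusp5. Dusp6 followed at 4.97 ± 1.30 and Spred1 at 4.81 ± 1.12, then Spry4 at 1.55 ± 0.828, Dusp4 at 1.07 ± 0.503 and Spry1 at 1.00 ± 0.43. Spry2 exceeded Dusp5 in 172 libraries, while Dusp6 exceeded Spred1 in only 116 and Dusp4 exceeded Spry1 in 109, so the order within those last pairs was not stable. Dusp5 stood above Dusp6, and Spred1 above Spry4, in all 200. Spry4 had 11 to 198 counts per library and Dusp4 had 1 to 22, and their values carry correspondingly more counting error. Spry1 had at most 16 counts and none in 1 library of HFD dark-feeding at ZT6, which allows up to 0.431 CPM. It failed the filter on low counts, so 6 of the 7 members were tested, among 14393 genes in all. With no filter, Spry1 passed the test in 0 of 42 comparisons, with a lowest adjusted p of 0.224 (edgeR).

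Spry4 had the largest fitted daily difference of the 6 tested members in each treatment, and its levels at ZT2 and ZT14 differed between the feeding schedules. In CPM of the scaled library, it was lowest at 1.99 (HFD dark-feeding, ZT10) and highest at 24.0 (chow dark-feeding, ZT18). With food ad libitum or in the dark phase its means were highest at ZT14 or ZT18. With food in the light phase they were high at ZT2 and ZT18 and low at ZT14. On chow the highest mean was at ZT18 under both restricted schedules, 13.2 CPM with dark-feeding and 9.28 CPM with light-feeding, as the plot of means by time shows.

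**Figure D1:**
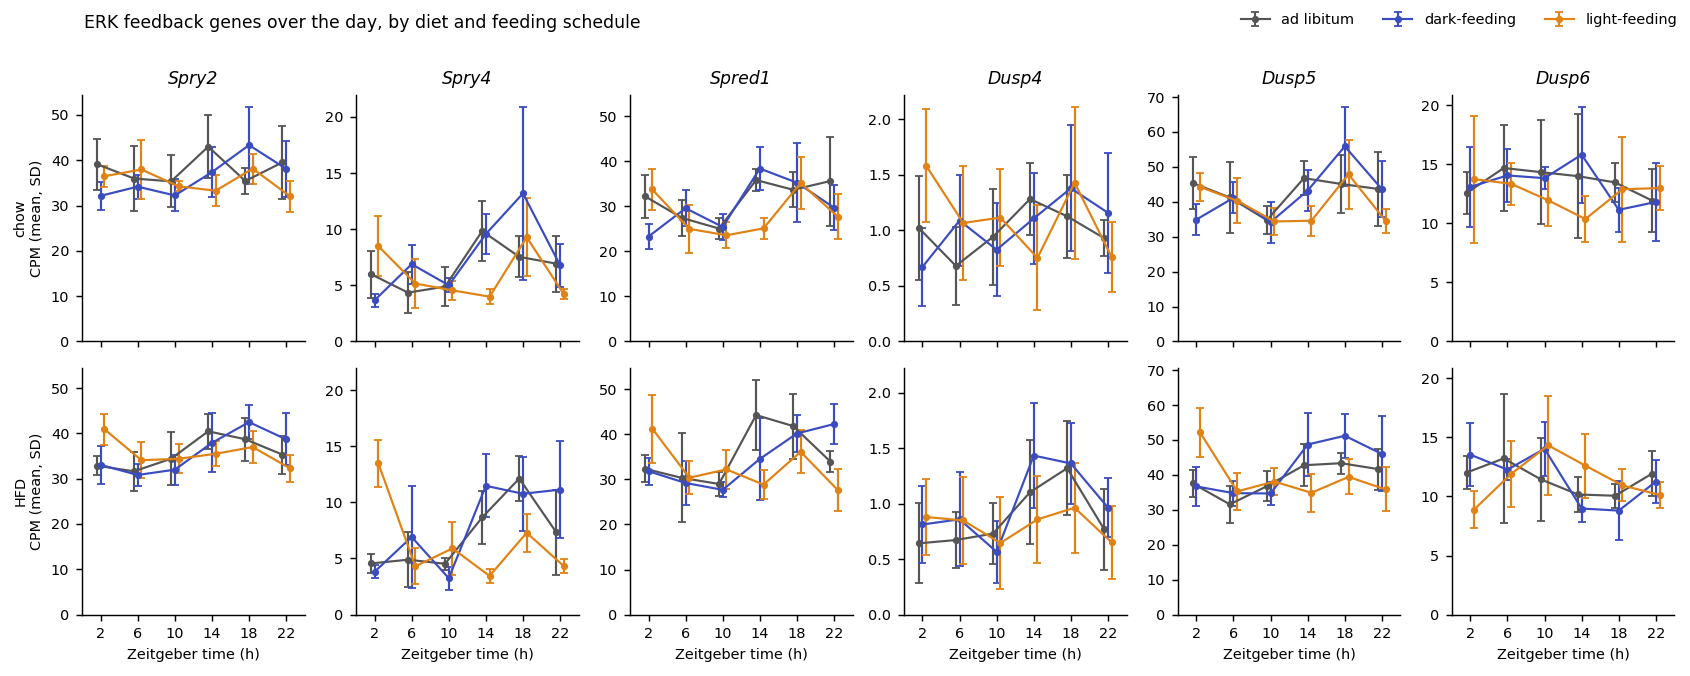
Mean level (points) and SD (bars) of 6 members in CPM against Zeitgeber time, chow above and HFD below, with the 3 schedules in colour and 5 to 7 libraries per point. Under HFD light-feeding Spry4 averaged 13.5 CPM at ZT2 and 3.44 CPM at ZT14, whereas under HFD dark-feeding it averaged 3.81 and 11.5 CPM at those times.

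The first comparison asked which members kept a daily rhythm in each treatment. A cosine and sine of 24 h were fitted to each gene in each treatment with edgeR's quasi-likelihood test, and a gene was called at a Benjamini-Hochberg adjusted p under 0.05. In HFD dark-feeding all 6 tested members were called, where 27.5% of all genes were. In HFD ad libitum 5 of 6 were called (all genes 19.6%), and in chow dark-feeding 4 of 6 (all genes 22.9%). In chow light-feeding only Spred1 was called (all genes 20.3%). None was called in chow ad libitum (all genes 4.56%) or in HFD light-feeding (all genes 0.841%), where 2 and 3 members passed an unadjusted p of 0.05; DESeq2 called 2 and 1 of them rhythmic. The median log2 peak-to-trough difference of the members was 0.65 in HFD dark-feeding, against 0.216 over all genes, and 0.254 against 0.144 in HFD light-feeding. Because the members were picked on these levels, the counts show how they behaved and are no independent test.

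Among the Sprouty genes, Spry4 in HFD ad libitum had a lowest, median and highest level of 3.21, 4.65 and 5.57 CPM at ZT2 and of 9.57, 12.5 and 14.4 CPM at ZT18 (n = 6 each). The ranges at those times did not overlap. Its fitted peak-to-trough difference was 1.47 ± 0.22 (SE, log2) with a peak at ZT 17.6 (adjusted p = 3.24e-05). In HFD dark-feeding the difference was 1.52 ± 0.33 with a peak at ZT 18.2 (adjusted p = 0.0026). In chow dark-feeding it was 1.27 ± 0.26 with a peak at ZT 16.6 (adjusted p = 0.00194). In chow ad libitum the fit gave 0.89 ± 0.24 at an adjusted p of 0.0516. Spry2, the abundant Sprouty, moved much less: its difference was 0.47 ± 0.08 in HFD dark-feeding, 0.34 ± 0.08 in HFD ad libitum and 0.38 ± 0.09 in chow dark-feeding, with peaks at ZT 18.4, 16.2 and 18.2.

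Spred1, the neurofibromin partner, was the only member with a called rhythm in chow light-feeding, with a difference of 0.47 ± 0.13 and a peak at ZT 21.4 (adjusted p = 0.0227). In HFD dark-feeding its level ran from 25.5 to 29.6 CPM at ZT10 and from 34.6 to 46.7 CPM at ZT22, 6 libraries each, without overlap. The fitted difference there was 0.63 ± 0.10 with a peak at ZT 19.8 (adjusted p = 4.88e-05).

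Of the phosphatases, Dusp5 and Dusp4 peaked with Spry4 in HFD dark-feeding, and Dusp6 did not. Dusp5 had a difference of 0.65 ± 0.11 in HFD dark-feeding with a peak at ZT 18.0 (adjusted p = 0.000118). Dusp4 had 1.04 ± 0.31 there with a peak at ZT 17.9 (adjusted p = 0.0304), from levels of at most 2.12 CPM. Dusp6 in HFD dark-feeding was at 11.11 to 17.5 CPM at ZT10 (n = 6), and at 4.94, 7.76, 9.90, 10.3 and 11.08 CPM at ZT18. The ranges at these times, which held the highest and lowest mean of Dusp6, only just missed each other. Its fitted peak fell at ZT 5.2, with a difference of 0.65 ± 0.14 (adjusted p = 0.00288), whereas the other 5 members peaked between ZT 17.9 and ZT 19.8.

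Cell type markers moved over the day as well. In HFD dark-feeding 6 of 12 microglia markers, 5 of 12 oligodendrocyte markers and 4 of 12 neuron markers were called rhythmic (all genes 27.5%). Among them the microglia genes Csf1r (0.60 ± 0.10) and Cx3cr1 (0.61 ± 0.11) peaked at ZT 5.3 and 4.5, near Dusp6. The neuron gene Syn1 (0.44 ± 0.08) peaked at ZT 18.7, near Spry4. Summed oligodendrocyte markers in HFD dark-feeding had medians of 20160 CPM at ZT6 and 19570 CPM at ZT10, against 16380 to 16860 CPM at the other times. High levels in the light phase were therefore not particular to microglia genes. The counts for those 3 lists were 8, 3 and 1 in HFD ad libitum (all genes 19.6%) and 4, 6 and 5 in chow dark-feeding (22.9%). In chow light-feeding they were 5, 10 and 1 (20.3%). Several of these counts lie near or below the share of all genes. With the mean scores of 5 other cell types as covariates, Spred1 in HFD dark-feeding was the only member rhythm still called (0.44, adjusted p = 0.0187). Spry4 then gave 0.63 in HFD dark-feeding (adjusted p = 0.576), 0.84 in HFD ad libitum (adjusted p = 0.0633) and 0.94 in chow dark-feeding (adjusted p = 0.146). What part cell mixture plays in the rhythms was not tested beyond these values. Runs of 8 library title numbers were also fitted as a block, with limma on voom-weighted counts in place of edgeR. Because block and test changed together, their effects cannot be told apart. Under that setting Spred1 in chow light-feeding (adjusted p = 0.0972) and Dusp4 in HFD dark-feeding (0.0518) lost their calls. So did Spry2 and Dusp4 in HFD ad libitum (0.0694 and 0.103).

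**Figure D2:**
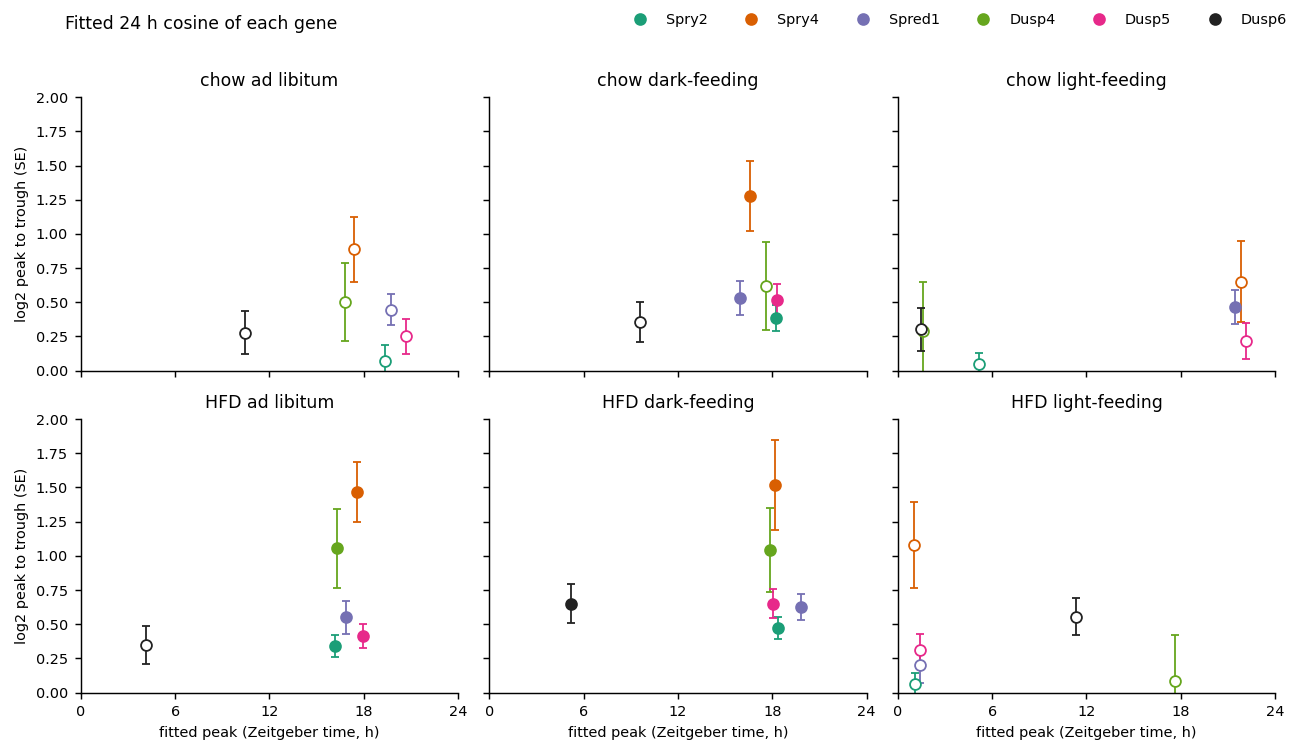
Fitted peak time (x axis, Zeitgeber hours) and log2 peak-to-trough difference with its SE (y axis) of the 24 h cosine for 6 members in each treatment, filled where the adjusted p was under 0.05. Dusp6 at ZT 5.2 lies far from the other 5 members, at ZT 17.9 to 19.8, in HFD dark-feeding, and no point is filled in chow ad libitum or HFD light-feeding.

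A cosine misses a day with more than 1 rise, so time was also fitted as a factor with 6 levels, a choice made after seeing the data. Under HFD light-feeding Spry4 (adjusted p = 1.12e-06), Spred1 (adjusted p = 0.0108) and Dusp5 (adjusted p = 0.00792) were then called, 3 of 6 members against 8.37% of all genes. Under chow light-feeding the same 3 genes were called (all genes 21.9%). For the other treatments the factor called 0 members in chow ad libitum (all genes 2.72%, 2 members at an unadjusted p under 0.05, 2 by DESeq2), 4 in chow dark-feeding (all genes 35.2%), 3 in HFD ad libitum (all genes 11.1%) and 6 in HFD dark-feeding (all genes 20.4%). With the block of title numbers Dusp5 lost its call in chow light-feeding (adjusted p = 0.127) and HFD ad libitum (0.185). The Spry4 means under HFD light-feeding were 13.5 CPM at ZT2, 4.30 at ZT6, 5.89 at ZT10, 3.44 at ZT14, 7.29 at ZT18 and 4.31 at ZT22. The level at ZT2 stood apart: its lowest library, at 10.95 CPM, exceeded the highest library of every other time in that treatment, at 9.86 CPM.

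The next comparison asked whether the daily course differed between light-feeding and dark-feeding on the same diet. On HFD the cosine differed for 5 of 6 members, where 21.6% of all genes differed: Spry2 (adjusted p = 0.00732), Spry4 (adjusted p = 0.00424), Spred1 (adjusted p = 0.012), Dusp5 (adjusted p = 0.00163) and Dusp6 (adjusted p = 0.00419). On chow it differed for Spry2 (adjusted p = 0.0173), Spry4 (adjusted p = 0.03) and Spred1 (adjusted p = 0.0158), 3 of 6 against 37% of all genes, a share near the background. Without the 6 libraries whose clock genes sat apart, the cosine of Spry4 on chow no longer passed (adjusted p = 0.075). With the 5 cell type scores as covariates the cosine of Spry4 passed on neither diet (adjusted p = 0.106 on chow and 0.0542 on HFD), nor did those of Spry2 (0.163 and 0.0742) and Spred1 (0.372 and 0.0843), while those of Dusp5 and Dusp6 on HFD did (0.0294 and 0.0226). With the block of title numbers no cosine difference on chow passed (adjusted p = 0.103 for Spry2, 0.367 for Spry4 and 0.246 for Spred1), and on HFD only Spry4 (0.0333) and Dusp5 (0.0418) did. With time as a factor, 5 of 6 members differed on HFD (all genes 27.3%), Spry4 at an adjusted p of 1.53e-09, and 4 of 6 on chow (all genes 40.7%), Spry4 at 0.000126. Spry4 passed this last test on both diets also with the 5 cell type scores as covariates (adjusted p = 3.41e-07 on HFD and 0.000618 on chow). With the block Spry4 passed it too (1.13e-06 and 0.0221), whereas Spry2 and Dusp5 on chow (0.0723 and 0.111) and Dusp6 on HFD (0.0541) did not. Markers of most cell types differed in the cosine test on chow. There 11 of 12 microglia, 11 of 12 oligodendrocyte, 7 of 12 neuron and 5 of 12 astrocyte markers were called. So were 6 of 8 oligodendrocyte precursor, 2 of 11 endothelial and 2 of 6 mural cell markers, and 6 of 6 erythrocyte genes. On HFD the counts in the same order were 8, 2, 3, 2, 1, 4, 2 and 1. The shares of all genes were 37% on chow and 21.6% on HFD.

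**Figure D3:**
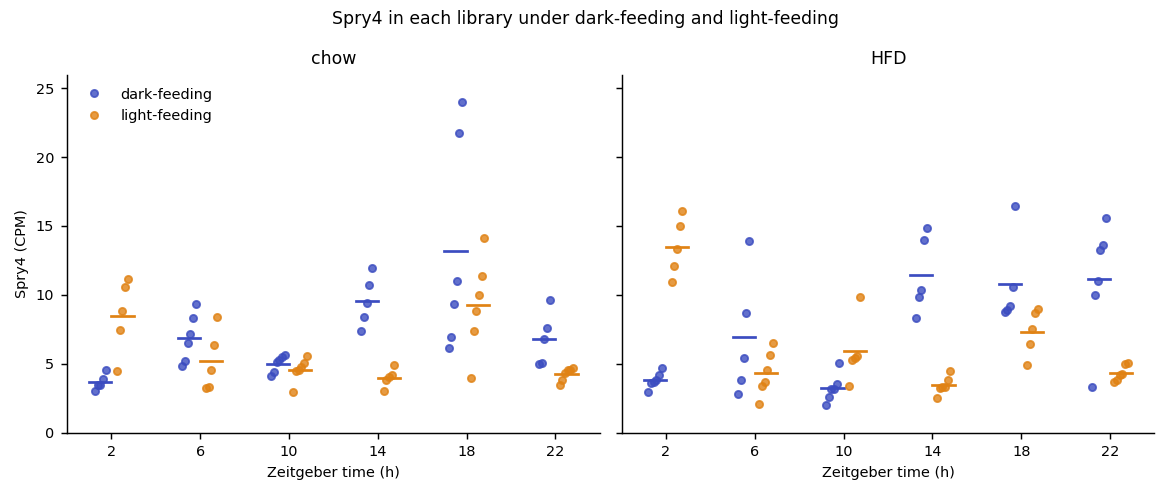
Level of Spry4 in CPM (y axis) in each dark-feeding and light-feeding library (points) at each Zeitgeber time (x axis), with the mean as a bar, chow left and HFD right. On HFD the light-feeding libraries lie between 10.95 and 16.1 CPM at ZT2, above all dark-feeding libraries, and between 2.53 and 4.49 CPM at ZT14, below all of them.

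Hour by hour, Spry4 on HFD turned over between the schedules. At ZT2 its level was 10.95, 12.1, 13.3, 15.0 and 16.1 CPM in the 5 light-feeding libraries, and 2.93, 3.75 and 4.69 CPM (lowest, median and highest) in the 6 dark-feeding libraries. The groups did not overlap. The log2 difference was 1.83 ± 0.27 (SE), a 3.54-fold higher level under light-feeding (adjusted p = 6.96e-06). At ZT14 the 5 dark-feeding libraries were at 8.34, 9.81, 10.4, 14.0 and 14.9 CPM, and the 6 light-feeding libraries at 2.53, 3.29 and 4.49 CPM (lowest, median and highest), again without overlap. The difference was -1.74 ± 0.28, or 0.3-fold (adjusted p = 0.000323). At ZT22 light-feeding libraries reached 5.03 CPM at most while dark-feeding libraries ran from 3.33 to 15.6 CPM, so 1 dark-feeding library lay below every light-feeding library and the other 5 lay above them all. The difference was -1.34 ± 0.27 (adjusted p = 0.000559).

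On chow the same turn was seen at ZT2 and ZT14 with smaller values. At ZT2 Spry4 was at 4.48, 7.43, 8.83, 10.6 and 11.2 CPM under light-feeding and at 2.99, 3.42, 3.46, 3.89 and 4.57 CPM under dark-feeding. Only the lowest light-feeding library fell within the dark-feeding range. The difference was 1.22 ± 0.30, or 2.33-fold (adjusted p = 0.00585), and with the block of title numbers it was 1.14 (adjusted p = 0.0893). At ZT14 the levels were 2.99, 3.84, 4.03, 4.18 and 4.90 CPM under light-feeding and 7.36, 8.42, 9.42, 10.7 and 12.0 CPM under dark-feeding, with no overlap. The difference there was -1.26 ± 0.29, or 0.418-fold (adjusted p = 0.00124). At ZT22 on chow the ranges did not overlap either, 3.48 to 4.69 against 4.97 to 9.59 CPM, yet the difference of -0.69 ± 0.27 missed the threshold (adjusted p = 0.108). Leaving out each library in turn kept Spry4 past the threshold in every fit of the 5 called hours.

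Spred1 followed Spry4 with smaller steps, except at ZT14 on HFD. There Spred1 was not called, with 25.5 to 33.1 CPM under light-feeding and 26.1 to 45.4 CPM under dark-feeding. On chow it was at 28.2, 30.8, 33.3, 37.5 and 38.9 CPM at ZT2 under light-feeding and at 20.4, 20.6, 24.0, 24.7 and 26.8 CPM under dark-feeding, without overlap (0.53 ± 0.14, adjusted p = 0.014). Without chow light-feeding replicate 9 that adjusted p was 0.0501. At ZT14 on chow Spred1 was lower under light-feeding, 23.0 to 28.9 against 34.4 to 45.5 CPM (-0.61 ± 0.14, adjusted p = 0.00154). On HFD it was higher at ZT2 (0.38 ± 0.12, adjusted p = 0.0193) and lower at ZT22, where light-feeding libraries ran from 19.3 to 32.1 CPM and dark-feeding libraries from 34.6 to 46.7 CPM (-0.61 ± 0.12, adjusted p = 0.00032). With the cell type scores as covariates Spred1 passed only at ZT22 on HFD (-0.63, adjusted p = 5.58e-05), and not at ZT2 on HFD (adjusted p = 0.493) or at ZT2 and ZT14 on chow (0.112 and 0.0512). The HFD call at ZT2 was lost without HFD light-feeding replicate 8, 16 or 17 (adjusted p = 0.0708, 0.0542 and 0.0657).

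Spry2 and Dusp5 moved the same way on HFD. Dusp5 at ZT2 was at 43.7, 48.7, 51.9, 53.6 and 62.8 CPM under light-feeding and at 31.5, 35.6 and 45.3 CPM (lowest, median and highest of 6) under dark-feeding, overlapping by 1 library of each group (0.51 ± 0.13, adjusted p = 0.00282). It was lower under light-feeding at ZT14 (-0.48 ± 0.13, adjusted p = 0.02) and ZT22 (-0.36 ± 0.12, adjusted p = 0.0388). Spry2 was higher at ZT2 (0.31 ± 0.09, adjusted p = 0.0136) and lower at ZT22 (-0.27 ± 0.09, adjusted p = 0.043). With the cell type scores as covariates Dusp5 at ZT2 (adjusted p = 0.0544) and Spry2 at ZT2 and ZT22 (0.118 and 0.0728) did not pass. With the block of title numbers Dusp5 at ZT14 and ZT22 (adjusted p = 0.0556 and 0.112) and Spry2 at ZT22 (0.131) did not. These smaller calls also rested on few libraries. Dusp5 lost its call at ZT14 without HFD dark-feeding replicate 14 or 20 or HFD light-feeding replicate 23 (adjusted p = 0.0791, 0.0817 and 0.0706). At ZT22 Dusp5 lost it without HFD light-feeding replicate 4, 5, 31 or 33 or HFD dark-feeding replicate 18, 24 or 27 (adjusted p from 0.0596 to 0.217). Spry2 at ZT22 lost it without HFD light-feeding replicate 4, 5, 31 or 33 or HFD dark-feeding replicate 18, 24 or 25 (adjusted p from 0.0607 to 0.175). At ZT2 Spry2 lost it without HFD dark-feeding replicate 2 or HFD light-feeding replicate 9 (adjusted p = 0.0562 and 0.0539).

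Dusp6 went the other way at ZT2 on HFD. It was at 7.08, 8.35, 8.52, 9.21 and 11.3 CPM under light-feeding and at 10.8, 13.0 and 17.8 CPM (lowest, median and highest of 6) under dark-feeding, so 1 light-feeding library lay within the dark-feeding range. The difference was -0.59 ± 0.17, or 0.662-fold (adjusted p = 0.00763). At ZT14 on chow Dusp6 was lower under light-feeding too, 7.69 to 12.7 against 10.4 to 21.6 CPM with overlap (-0.61 ± 0.20, adjusted p = 0.021). That call was lost without chow dark-feeding replicate 8 or 9 or chow light-feeding replicate 26 (adjusted p = 0.109, 0.0535 and 0.0696). Dusp4 was not called at any hour; its difference at ZT2 on chow was 1.29 ± 0.44 (adjusted p = 0.0579).

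In counts, light-feeding against dark-feeding on HFD called 5 of 6 members at ZT2 (4 higher and 1 lower, all genes 20%), 2 lower at ZT14 (all genes 4.02%) and 4 lower at ZT22 (all genes 13.4%). On chow it called 2 higher at ZT2 (all genes 7.36%), 3 lower at ZT14 (all genes 22.5%) and 0 at ZT22 (all genes 7.45%), where 3 members had an unadjusted p under 0.05. No member was called at ZT6 (all genes 2.43% on chow and 0% on HFD), at ZT10 (2.96% and 0%) or at ZT18 (0.0695% and 0%). At those hours 0, 0 and 1 members on chow and 1, 1 and 3 on HFD reached an unadjusted p below 0.05. By DESeq2 none passed at these hours, nor at ZT22 on chow.

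Marker genes also differed between the schedules at some of these hours, to be read against the shares of all genes just given. At ZT2 on HFD 10 of 12 microglia markers were lower under light-feeding, with a summed level of 774 to 1207 CPM (median 967) against 1115 to 1427 CPM (median 1403), and 4 of 12 neuron markers were higher. At ZT14 on chow 6 of 12 astrocyte markers were lower and 1 was higher (median -0.66 on the log2 scale), and 5 of 12 microglia markers and 4 of 12 neuron markers were lower. At ZT14 on HFD 2 microglia markers were higher and 1 neuron marker was lower, at ZT2 on chow 0 microglia markers and 1 neuron marker, higher, were called, and at ZT22 on HFD 0 microglia markers were called while 1 neuron marker was higher and 2 were lower. Erythrocyte genes differed on chow, with 5 of 6 higher at ZT2 and 6 of 6 lower at ZT14. With the cell type scores as covariates Spry4 gave 1.58 at ZT2 (adjusted p = 0.00268), -1.66 at ZT14 (adjusted p = 0.000263) and -1.30 at ZT22 (adjusted p = 0.000565) on HFD, and 1.29 at ZT2 (adjusted p = 0.0107) and -1.63 at ZT14 (adjusted p = 0.00532) on chow. All 5 of its calls were kept with these scores, which cover astrocyte, oligodendrocyte, neuron, endothelial and mural markers. Microglia markers and erythrocyte genes are not among them and were not adjusted for. Under the same covariates Dusp6 gave -0.43 at ZT2 on HFD (adjusted p = 0.181) and -0.19 at ZT14 on chow (adjusted p = 0.665).

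Averaged over the 6 times, few members differed between the diets, and by little. Spred1 was higher on HFD, by 0.19 ± 0.06 (log2) under dark-feeding (adjusted p = 0.00712) and 0.20 ± 0.05 under light-feeding (adjusted p = 0.00128). Dusp6 was lower on HFD, with -0.23 ± 0.08 ad libitum (adjusted p = 0.0281) and -0.21 ± 0.07 under dark-feeding (adjusted p = 0.0162). Dusp4 was lower under light-feeding, -0.42 ± 0.17 (adjusted p = 0.03). That made 1, 2 and 2 of 6 members called ad libitum, under dark-feeding and under light-feeding, against 20.1%, 45.9% and 50.3% of all genes, so none of these shares exceeded the background.

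The levels behind these differences overlapped widely. Spred1 had a lowest, median and highest level of 19.6, 28.2 and 44.5 CPM in chow light-feeding and of 19.3, 31.1 and 47.5 CPM in HFD light-feeding. Dusp6 had 8.13, 12.9 and 22.4 CPM in chow ad libitum and 6.76, 11.1 and 22.9 CPM in HFD ad libitum. Spry4 did not pass in any schedule, with differences of 0.05 ± 0.12, 0.02 ± 0.13 and 0.05 ± 0.11. On the authors' FPKM values the Spred1 differences were 0.06 and 0.09 (log2), at adjusted p of 0.456 and 0.21. The library titles number chow and HFD samples in separate series, so diet and any batch that follows those series cannot be told apart. Against 20.1%, 45.9% and 50.3% of all genes called, microglia markers were lower on HFD (5, 8 and 7 of 12 in the same order of schedules). Oligodendrocyte markers were higher (2, 8 and 8 of 12). Neuron markers went both ways, with 2, 6 and 5 of 12 lower and 1, 1 and 2 higher. Astrocyte markers moved further: 0 were called ad libitum, and 11 of 12 were lower and 1 higher under both dark-feeding (median -0.54 on the log2 scale) and light-feeding (median -0.68). Of 11 tested endothelial markers 1, 7 and 9 were lower, of 6 tested mural cell markers 1, 4 and 5, and of 6 tested erythrocyte genes 5, 6 and 3; 1 endothelial marker under light-feeding and 1 mural cell marker under dark-feeding were higher. With the cell type scores as covariates Dusp6 under dark-feeding gave -0.06 (adjusted p = 0.787). With the same covariates Spred1 under dark-feeding (0.212) and Dusp4 under light-feeding (0.315) did not pass either. With the block of title numbers Dusp6 ad libitum (adjusted p = 0.159), Dusp6 under dark-feeding (0.152) and Dusp4 under light-feeding (0.079) did not pass. Single times also decided diet calls. Dusp6 ad libitum missed the threshold without ZT14 or ZT18 (adjusted p = 0.138 and 0.196), as did Dusp6 under dark-feeding (0.242 and 0.0513). Spred1 under dark-feeding missed it without ZT2 or ZT22 (adjusted p = 0.0877 and 0.122). Dusp4 under light-feeding missed it without ZT2, ZT6, ZT10 or ZT18 (adjusted p from 0.05 to 0.139).

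**Figure D4:**
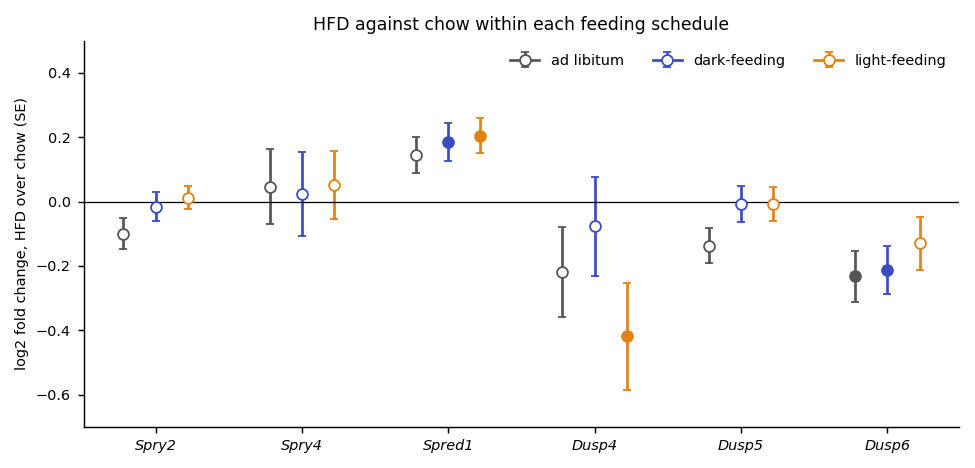
Log2 fold change of HFD over chow with its SE (y axis) for 6 members (x axis) in each feeding schedule, filled where the adjusted p was under 0.05. Spred1 sits above 0 and Dusp6 below 0 in all 3 schedules, and Spry4 lies within 1 SE of 0 in each.

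Over the whole day the treatment means of Spry4 differed by less than the SD within any treatment. That SD pools the 6 times and so includes the daily course. Spry4 averaged 6.59 ± 2.63 CPM (SD) in chow ad libitum, 7.60 ± 4.60 in chow dark-feeding and 5.96 ± 2.88 in chow light-feeding. On HFD it averaged 7.14 ± 3.52, 7.72 ± 4.53 and 6.23 ± 3.66 CPM in the same order of schedules. The SD was widest in both dark-feeding groups, and neighbouring means lay well within 1 SD of each other. Treatment means ran from 28.4 to 35.6 CPM for Spred1, from 35.3 to 38.1 for Spry2, from 38.9 to 43.1 for Dusp5, from 11.4 to 13.4 for Dusp6, from 0.805 to 1.12 for Dusp4 and from 0.708 to 0.794 for Spry1. The highest treatment was HFD ad libitum for Spred1 and chow ad libitum for Spry2, Dusp5 and Dusp6.

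Averaged over the day, the schedules gave no called member. Dark-feeding against ad libitum called 0 members on chow (all genes 0%) and 0 on HFD (all genes 4.7%). Light-feeding against ad libitum called 0 on chow (all genes 1.6%, 3 members at an unadjusted p under 0.05) and 0 on HFD (all genes 10.7%). Light-feeding against dark-feeding called 0 on chow (all genes 0%, 1 member at an unadjusted p under 0.05, Spry4 at -0.34 ± 0.14) and 0 on HFD (all genes 0.0834%). DESeq2 called 0 in each of these 6. The interaction of diet with schedule called 0 members for dark-feeding (all genes 0.792%) and 0 for light-feeding (all genes 9.81%), and DESeq2 called 0. The rhythm differed between HFD and chow for 0 members ad libitum (all genes 0%), 0 under dark-feeding (all genes 0%, 2 members at an unadjusted p under 0.05) and 1 under light-feeding (all genes 9.18%), which was Dusp6 (adjusted p = 0.0263, and 0.129 with the block of title numbers and 0.217 with the cell type scores).

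The rest of the pathway was read through 5 lists. The list of 18 ERK-induced transcription factors and targets had 14 members tested. In chow dark-feeding 8 of them were rhythmic (all genes 22.9%), among them Fos (2.36 ± 0.49, peak at ZT 17.7), Egr1 (1.16 ± 0.20, ZT 17.1) and Etv5 (0.62 ± 0.10, ZT 18.8), beside a Spry4 peak at ZT 16.6. The counts were 6 in HFD dark-feeding (all genes 27.5%), 4 in HFD ad libitum (19.6%), 1 in chow ad libitum (4.56%), 1 in chow light-feeding (20.3%) and 0 in HFD light-feeding (0.841%). At ZT2 on chow 4 of the 14 were higher under light-feeding (all genes 7.36%), Fos by 2.20 ± 0.64 and Egr1 by 0.86 ± 0.25. At ZT14 on chow 6 were lower and 1 higher (all genes 22.5%), with Junb at -1.05 ± 0.20 and Etv5 at -0.50 ± 0.12. At ZT2 on HFD 2 were higher, Fos (1.47 ± 0.54) and Egr1 (0.86 ± 0.27), and 2 were lower, Myc (-0.88 ± 0.28) and Etv4 (-0.36 ± 0.13), where 20% of all genes were called. At ZT14 on HFD 0 were called (all genes 4.02%), and at ZT22 on HFD 3 were lower (all genes 13.4%). On HFD 4, 5 and 6 of them were lower and 1, 1 and 2 higher ad libitum, under dark-feeding and under light-feeding, against 20.1%, 45.9% and 50.3% of all genes called; the last 2 counts lie near that background. Junb was at -0.60 ± 0.10 on HFD ad libitum.

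Among 9 tested of 10 other Sprouty, SPRED and MAP kinase phosphatase genes, 4 were rhythmic in chow dark-feeding (all genes 22.9%) and 6 in HFD dark-feeding (all genes 27.5%). Dusp1, a phosphatase of p38, JNK and ERK, had a difference of 1.27 ± 0.20 in chow dark-feeding with a peak at ZT 17.2. It was higher under light-feeding at ZT2 on chow (0.80 ± 0.23) and lower at ZT14 (-0.69 ± 0.22). Of 8 other negative regulators of receptor tyrosine kinases and RAS, 3 were rhythmic in each dark-feeding group, against the same shares of all genes. Errfi1, an inhibitor of the EGF receptor, peaked at ZT 18.3 and Rasa2, a RAS inhibitor, at ZT 5.5 in HFD dark-feeding. Of 12 tested receptors, 2 and 4 were rhythmic in chow and HFD dark-feeding, near those shares, and 8 in chow light-feeding (all genes 20.3%). Of the 15 genes from GRB2 to ERK themselves, 0 were rhythmic in chow dark-feeding and 4 in HFD dark-feeding, from Map2k2 at 0.16 ± 0.05 to Nras at 0.33 ± 0.06. For the diet under dark-feeding 11 of those 15 were called, 6 higher and 5 lower (all genes 45.9%), with Hras at -0.38 ± 0.05 and Braf at 0.21 ± 0.03.

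Members were also compared with each other across libraries. Over the 36 means of treatment and time, Pearson's r was 0.883 between Spry2 and Dusp5, 0.873 between Spry4 and Dusp5 and 0.806 between Spry4 and Spred1. Within treatment and time, over 200 libraries, it was 0.655, 0.513 and 0.369 for those pairs. Dusp6 had a negative r over the means with each of the other 5 tested members, from -0.45 to -0.255. Between libraries of 1 treatment and time Dusp6 rose with the microglia marker score (r = 0.61), whereas Dusp5 (r = -0.448), Spry2 (r = -0.439) and Spry4 (r = -0.321) fell with it, and Spred1 had almost none (r = 0.0613). These signs were not particular to microglia. Dusp6 was positive with every other non-neuronal list, from 0.206 (oligodendrocyte precursor) to 0.417 (oligodendrocyte). Dusp5 and Spry2 were negative with each of those lists, and so was Spry4 except with erythrocyte genes (r = 0.00985). With the neuron marker score r was 0.364 for Spry2, 0.245 for Spry4 and -0.386 for Dusp6. These are descriptions of points that share library preparation, depth and tissue mixture.

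**Figure D5:**
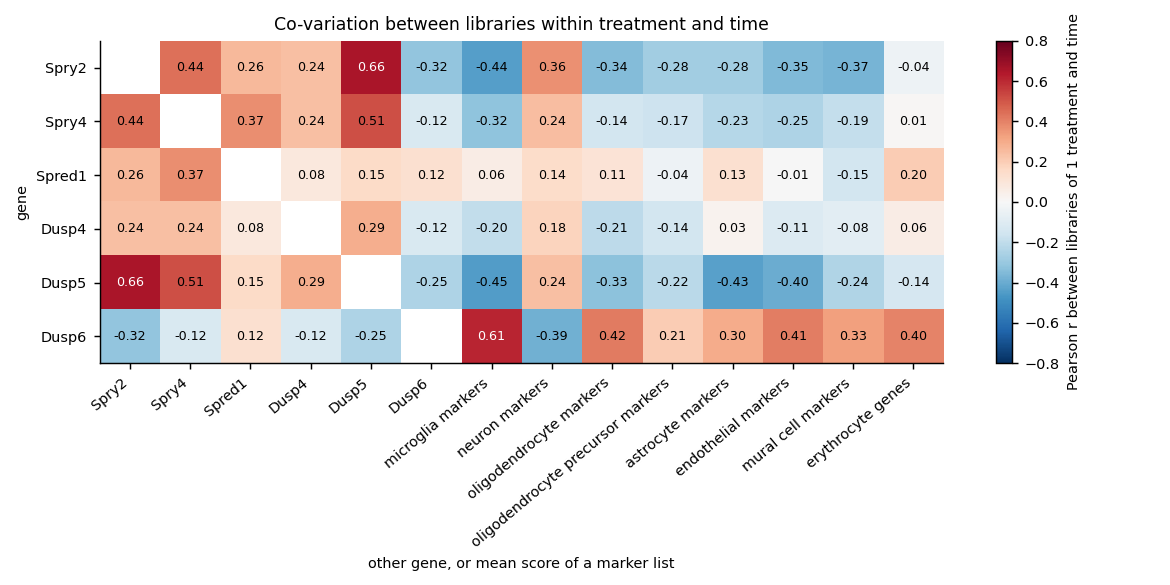
Pearson's r between libraries of 1 treatment and time, over 200 libraries, for 6 members (rows) against each other and against the mean scores of 8 marker lists (columns), from blue (negative) to red (positive). Dusp6 has its highest r with microglia markers (0.61), where Spry2, Spry4 and Dusp5 are negative.

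The genes whose 36 means ran most alike were ranked among 11350 genes with a mean of at least 5 CPM. Spry4 was nearest to Eomes (r = 0.927), Nr4a3 (r = 0.918) and Map3k13 (r = 0.916). Within treatment and time, over 200 libraries, r was 0.713, 0.628 and 0.372 for these. Dusp6 was nearest to Lyn (r = 0.905), Klhl6 (r = 0.904) and Ikzf1 (r = 0.901), with 0.737, 0.648 and 0.701 within treatment and time. Of these, Lyn is a kinase and Ikzf1 a transcription factor of blood and immune cells. Spred1 was nearest to Rock2 (r = 0.898) and to Bdnf (r = 0.885), a neurotrophin, with 0.524 and 0.304 within treatment and time. Spry2 was nearest to Agtpbp1 (r = 0.891), Dusp5 to Zfhx2 (r = 0.896) and Dusp4 to Spata2L (r = 0.833). For those pairs r within treatment and time was 0.37, 0.402 and 0.337. Of 14 tested ERK targets, Spry4 had its highest r over the means with Fos (0.776) and Etv5 (0.764), and its lowest with Myc (-0.271). Within treatment and time these were 0.469, 0.346 and -0.0637. Dusp6 had its highest r over the means with Ccnd1 (0.667) and its lowest with Etv1 (-0.638). Within treatment and time these were 0.514 and -0.295.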

How the data were processed

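Gene-level expected counts and FPKM values were deposited by the authors for all 200 libraries, per the file headers. Reads came from a strand-specific, mRNA-enriched preparation, per the labels' protocols, and the submitters' processing notes name the genome build Rnor 6.0. Which aligner and counting tool made them is not given in the sources used here. Of the count entries 8.03% were not whole and were rounded.

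Genes with low counts were removed with edgeR's filterByExpr over the 6 treatments, which left 14393. Libraries were scaled by TMM, and CPM values are on that scale. The main test was edgeR's quasi-likelihood F-test (edgeR 4.0.16, R 4.3.3) with Benjamini-Hochberg adjustment over all genes tested and a threshold of 0.05. An SE is the log2 change divided by the square root of F, and that of a cosine is by the delta method. Comparisons at single times used the libraries of both schedules of a diet, which share 1 estimate of spread. The scripts were tested on simulated data. Among 461 library pairs of 1 treatment and time none was identical, and the lowest chi-square per degree of freedom was 2.25.

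The members, the pathway lists, the marker lists and the tests were chosen with earlier results of these data known. Comparisons at single times, of time courses and of time as a factor were added after seeing the data. From each pathway list at most the 4 genes with the smallest adjusted p among those called were open to naming, and for each member the 3 genes with the highest correlation over the means of treatment and time. Alternatives were DESeq2 1.42.0, RLE scaling, no filter and limma 3.58.1 on log2(FPKM + 0.1). Others were the mean marker scores of 5 cell types (astrocyte, oligodendrocyte, neuron, endothelial and mural) as covariates and runs of 8 title numbers as a block. The block was fitted with limma on voom-weighted counts in place of edgeR. That test was not run without the block, so effects of block and test cannot be told apart. A spline of the title number, time as a factor and each time left out were also run. Added after seeing the data were fits without the 6 libraries with a clock profile apart and without each library in turn.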

Additional observations from a re-analysis of the deposited data

Results flagged for a closer look

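Of the 252 groups of 1 gene, treatment and time, 15 held a library far from the others by Dixon's criterion, and chance alone flags about 1 in 20 groups. Dusp6 had 4 high libraries: 19.04 CPM in chow dark-feeding at ZT2 (others 10.75 to 12.44), 16.16 CPM in chow light-feeding at ZT10 (others 9.81 to 12.1), 21.79 CPM in chow light-feeding at ZT18 (others 10.1 to 12.2) and 22.85 CPM in HFD ad libitum at ZT6 (others 10.1 to 12.6). Dusp5 had a low library in chow light-feeding at ZT18, 28.52 CPM against 46.3 to 55.5 CPM, and a high one in HFD ad libitum at ZT18, 49.24 CPM against 41.0 to 42.9 CPM. Spry4 had 1 high library in HFD dark-feeding at ZT18, 16.47 CPM against 8.72 to 10.6 CPM. Spry2 had high libraries in chow light-feeding at ZT22 (38.92 CPM, others 29.8 to 31.5) and HFD light-feeding at ZT18 (43.1 CPM, others 35.1 to 36.0). Spred1 had a low library in chow ad libitum at ZT14 (31.62 CPM, others 36.2 to 37.5) and a high one in HFD light-feeding at ZT6 (37.55 CPM, others 26.6 to 30.1). Dusp4 had a high library in chow light-feeding at ZT14 (1.569 CPM, others 0.384 to 0.712). The rare gene Spry1 had high libraries in chow ad libitum at ZT22 (1.288 CPM) and HFD dark-feeding at ZT22 (1.532 CPM) and a low one in chow dark-feeding at ZT18 (0.2614 CPM).

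The daily cosine differed between light-feeding and dark-feeding on chow for Spry2 (edgeR adjusted p = 0.0173), Spry4 (0.03) and Spred1 (0.0158). On HFD it differed for Spry2 (0.00732), Spry4 (0.00424), Spred1 (0.012), Dusp5 (0.00163) and Dusp6 (0.00419). Between HFD and chow it differed under light-feeding for Dusp6 (0.0263). With time as a factor the courses of both schedules differed on chow for Spry2 (0.0302), Spry4 (0.000126), Spred1 (0.000524) and Dusp5 (0.019), and on HFD for Spry2 (0.003), Spry4 (1.53e-09), Spred1 (0.000106), Dusp5 (8.09e-05) and Dusp6 (0.00514).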

How the results depend on the processing

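No called difference between 2 groups changed its sign under the alternatives run. No called cosine had its peak moved by over 6 h where a cosine was fitted again. Results with time as a factor are ranges over the times, which have no sign and could not reverse. Of the values of single called genes recomputed there, 626 stayed past their threshold and 112 did not, 45 of them with marker scores as covariates. Counts of members called that moved by over 1.5 times follow, and the cause was not tested. With marker scores the rhythm counts were 0 in HFD ad libitum, chow dark-feeding and chow light-feeding and 1 in HFD dark-feeding. Time as a factor then gave 0 in HFD ad libitum and HFD dark-feeding, and the schedule difference of rhythm 0 on chow and 2 on HFD. The diet difference of rhythm under light-feeding gave 0, the diet 0 under dark-feeding and 1 under light-feeding, and light-feeding against dark-feeding 1 at ZT2 and ZT14 on chow and 1 at ZT2 on HFD. With runs of title numbers as a block the counts were 1 at ZT14 and 2 at ZT22 on HFD, 0, 1 and 1 for the diet ad libitum, under dark-feeding and under light-feeding, 0 and 2 for the schedule difference of rhythm on chow and HFD, 0 for the diet difference of rhythm under light-feeding, and 0, 1 and 3 for the rhythm in chow light-feeding, chow ad libitum and HFD ad libitum. Under that block Spry4 at ZT2 on chow gave 1.14 (adjusted p = 0.0893), while its other 4 hours stayed called. That setting also replaced edgeR with limma, so the block alone was not tested. DESeq2 called 2 rhythms in chow ad libitum, 1 in HFD light-feeding, 2 for the diet ad libitum, and with time as a factor 2 in chow ad libitum and 5 in HFD light-feeding. FPKM called 1 for the diet under dark-feeding and under light-feeding, RLE scaling 1 rhythm in chow ad libitum, no filter 2 at ZT22 on HFD, the spline 1 for dark-feeding against ad libitum on HFD, and time as a factor 3 in place of the cosine in HFD ad libitum, HFD light-feeding and chow light-feeding. Without ZT2 the counts were 1 and 1 for the diet under dark-feeding and light-feeding, 1 for light-feeding against dark-feeding and 2 for light-feeding against ad libitum, both on HFD. For the diet they were 1 under light-feeding without ZT6, 1 under light-feeding and 2 ad libitum without ZT10, 0 ad libitum and 1 under dark-feeding without ZT14, 0, 1 and 1 in the 3 schedules without ZT18, and 1 under dark-feeding and 2 ad libitum without ZT22. Light-feeding against ad libitum on chow gave 1 without ZT18. Without the 6 libraries with a clock profile apart 1 rhythm was called in chow ad libitum, time as a factor called 5 in chow light-feeding, and the schedule difference of rhythm of Spry4 on chow was 1.14 (adjusted p = 0.075). Leaving out each library in turn, the counts ran from 2 to 3 at ZT2, 2 to 4 at ZT14 and 0 to 1 at ZT22 on chow, and from 4 to 5 at ZT2, 1 to 3 at ZT14 and 2 to 4 at ZT22 on HFD. No paired analysis was possible because the replicate numbers only name libraries in accession order. Depth limits Spry1 and Dusp4 most.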
